A study of Mus musculus with 8 samples.

Results

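Egr1, Egr2, Egr3, Nr4a1, Nr4a2, Nr4a3, Dusp1, Dusp2, Ier2 and Zfp36 are early genes that B cells transcribe within minutes of antigen receptor signaling. As a group they were followed through bulk RNA-sequencing of splenic B cells from diseased mice. They were chosen by gene symbol, a rule that uses no measured value, as receptor-induced early genes outside the AP-1 family. Earlier results of these data were known when the choice was made. The 10 genes were 10 of the 24902 symbols in the counts matrix. All 10 had a value in every mouse, and all 10 passed the expression filter that left 13173 genes for testing.

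The 8 samples were 4 Eµ-PRMT5 mice, 3 Eµ-PRMT5/TCL1 mice and 1 Eµ-TCL1 mouse. Eµ-PRMT5 mice carry human PRMT5, an arginine methyltransferase, under a V_H promoter and the IgH-Eµ enhancer, which drive the transgene in immature and mature B cells. Eµ-TCL1 mice carry the human oncogene TCL1 and are an established model of chronic lymphocytic leukemia (CLL), and Eµ-PRMT5/TCL1 mice carry both human transgenes, from a cross in which the Eµ-TCL1 parent was homozygous. The labels give the strain as C57BL/6N for every mouse, while the methods give C57BL/6 J for the Eµ-TCL1 line. All mice had met early removal criteria (ERC) for disease, so every group was diseased and every group carried at least 1 transgene; their ages are not given in the sources used here, and both sexes were used in the study. The identifier in the title of Eµ-PRMT5 mouse 2 is also that of a transgenic founder in the methods. Codes in the titles of Eµ-PRMT5 mice 3 and 4 also name mice in the paper's histology. The paper describes anaplastic large lymphocytes with histiocytes for the code of mouse 3, and sheets of small lymphocytes for that of mouse 4. Each sample was the pan-B cell fraction of 1 spleen, and wild-type mice were not analysed here.

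The EGR proteins are zinc finger transcription factors, and the NR4A proteins are orphan nuclear receptors. Ligation of the B-cell receptor activates calcium, NFAT and the RAS-ERK cascade, and serum response factor with its ETS partners, together with CREB, carries that signal to the promoters of these genes. In CLL, transcripts such as EGR2 and NR4A1 are widely read as a trace of recent receptor engagement in lymphoid tissue. The group also holds brakes on the signal: DUSP1 and DUSP2 dephosphorylate MAP kinases in the nucleus, and ZFP36 (tristetraprolin) binds AU-rich mRNA and speeds its decay. IER2 is a small nuclear protein of the immediate early response.

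Counts on genes ranged from 3356297 in the Eµ-TCL1 mouse to 10252426 in Eµ-PRMT5 mouse 4. Levels are given as CPM, counts scaled to library size with TMM factors, which adjust each library for its composition. The libraries differed in the levels of cell type markers. The 7 B-cell markers together, among them Cd79a and Ms4a1, ran from 1899 to 6649 CPM in the 4 Eµ-PRMT5 mice and from 3442 to 8483 CPM in Eµ-PRMT5/TCL1 mice, and were 4744 CPM in the Eµ-TCL1 mouse. The lowest value was that of Eµ-PRMT5 mouse 4. The 10 neutrophil markers ran from 427.5 to 5352 CPM in the 4 Eµ-PRMT5 mice, with mouse 4 highest, and from 650.5 to 9040 CPM in Eµ-PRMT5/TCL1 mice, with mouse 1 highest; the Eµ-TCL1 mouse had 604.5 CPM. The 5 macrophage and monocyte markers with a value in every mouse ran from 1124 to 3322 CPM in the 4 Eµ-PRMT5 mice and from 991.2 to 7327 CPM in Eµ-PRMT5/TCL1 mice, with the same 2 mice highest, and the Eµ-TCL1 mouse had 1070 CPM. None of the markers with a value in every mouse was at 0 in any mouse. In such bulk samples, fewer cells of a type and less RNA per cell cannot be told apart.

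Among the EGR genes, Egr1 was the most abundant and was highest in the Eµ-TCL1 mouse. Egr1 measured 135, 331, 174 and 69.2 CPM in Eµ-PRMT5 mice 1 to 4, 93.8, 290 and 564 CPM in Eµ-PRMT5/TCL1 mice 1 to 3, and 895 CPM in the Eµ-TCL1 mouse. The Eµ-TCL1 value lay above all 7 others, while the 2 other genotypes overlapped. Egr2 (chromosome 10 of GRCm38, 67535475 to 67542188), which in lymphocytes restrains activation, measured 35.7, 236, 11.6 and 21.1 CPM in Eµ-PRMT5 mice, compared with 21.5, 149 and 47.8 CPM in Eµ-PRMT5/TCL1 mice, and was 81.6 CPM in the Eµ-TCL1 mouse. Mouse 2 was highest in both replicated genotypes, and the range within Eµ-PRMT5 mice was 20.3-fold. Egr3, a close relative of Egr2, was at 0.812, 13.8, 2.96 and 0 CPM in Eµ-PRMT5 mice, compared with 3.44, 4.29 and 4.76 CPM in Eµ-PRMT5/TCL1 mice, and was 3.51 CPM in the Eµ-TCL1 mouse. The 0 in Eµ-PRMT5 mouse 4 allows up to 0.346 CPM (3 counts), so mouse 2 was at least 39.8-fold higher, and with at most 87 counts in any mouse Egr3 was the least precisely measured of the 10.

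The RefSeq promoter table (GRCm38.p6) held a window for 7 of the 10 genes, and none for Egr1, Egr3 and Ier2. It gives 5 start sites for Egr2. The 250 bases before 1 of them (chr10:67537619-67537868, forward strand) are shown because they hold a CArG box, printed in capitals. This is the binding sequence of serum response factor. The overlapping windows from 67537620 and 67537680 hold the same box. The window from 67537316 holds another (CCTTTTTTGG), and that from 67535249 holds none.
Egr2: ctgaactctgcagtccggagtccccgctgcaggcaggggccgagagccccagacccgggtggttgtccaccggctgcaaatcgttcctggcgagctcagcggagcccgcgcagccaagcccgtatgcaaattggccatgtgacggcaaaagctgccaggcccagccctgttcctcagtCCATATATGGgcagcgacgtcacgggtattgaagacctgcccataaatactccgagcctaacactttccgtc
A CArG box on either strand was found in 1.47% of the 32851 windows of 250 bases in the table, among them 1 window of Zfp36. The Egr2 window shown also holds TGACG, the core of the cyclic AMP response element bound by CREB, 2 times over both strands. Such matches describe the letters of the window and are no evidence of binding.

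The 3 NR4A genes differed widely in level but shared the mouse with the highest value within Eµ-PRMT5/TCL1 mice. Nr4a1 (Nur77; chromosome 15 of GRCm38, 101254269 to 101274795), the most abundant, measured 288, 1272, 142 and 65.3 CPM in Eµ-PRMT5 mice, compared with 319, 1244 and 124 CPM in Eµ-PRMT5/TCL1 mice, and was 370 CPM in the Eµ-TCL1 mouse. Mouse 2 of each replicated genotype stood above the 6 other mice, and the 2 genotypes covered nearly the same range. Nr4a3 (NOR1) measured 23.9, 64.3, 14.4 and 3.11 CPM in Eµ-PRMT5 mice, compared with 10.5, 34.0 and 4.15 CPM in Eµ-PRMT5/TCL1 mice, and was 26.2 CPM in the Eµ-TCL1 mouse. The order of mice within each genotype was that of Nr4a1, with mouse 2 highest and mouse 1 next. Nr4a2 (Nurr1) measured 2.64, 15.2, 16.6 and 6.23 CPM in Eµ-PRMT5 mice, compared with 23.6, 37.0 and 4.30 CPM in Eµ-PRMT5/TCL1 mice, and was 7.57 CPM in the Eµ-TCL1 mouse. Mice 1 and 2 of Eµ-PRMT5/TCL1 lay above every Eµ-PRMT5 mouse, whereas mouse 3 lay below 3 of them.

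The NR4A promoters are shown because Nr4a1 and Nr4a3 were high in the same mice and because each window of 250 bases holds TGACG 4 times over both strands. At least 1 copy was found in 17.8% of the 32851 windows and at least 4 in 0.137%. Capitals mark TGACG or its reverse complement. The windows are chr15:101266596-101266845 (forward strand) for Nr4a1, chr2:57124004-57124253 (reverse strand) for Nr4a2 and chr4:48045055-48045152 (forward strand) for Nr4a3, which is printed only as far as the first annotated exon and so with 3 of its 4 copies.
Nr4a1: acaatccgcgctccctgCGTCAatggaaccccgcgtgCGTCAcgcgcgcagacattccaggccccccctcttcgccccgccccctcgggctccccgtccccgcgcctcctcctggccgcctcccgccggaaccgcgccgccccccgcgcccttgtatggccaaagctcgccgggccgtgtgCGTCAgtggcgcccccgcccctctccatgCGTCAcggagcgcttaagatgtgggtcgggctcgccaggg
Nr4a2: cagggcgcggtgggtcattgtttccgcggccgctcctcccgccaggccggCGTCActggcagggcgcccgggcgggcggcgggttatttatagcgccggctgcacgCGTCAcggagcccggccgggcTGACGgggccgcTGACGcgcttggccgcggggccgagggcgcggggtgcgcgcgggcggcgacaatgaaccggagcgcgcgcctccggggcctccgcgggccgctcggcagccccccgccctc
Nr4a3: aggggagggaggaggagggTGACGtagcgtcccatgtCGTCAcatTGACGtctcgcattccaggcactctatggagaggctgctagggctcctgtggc
The order of mice for Nr4a2 was that for Nr4a1 within Eµ-PRMT5/TCL1 mice but not within Eµ-PRMT5 mice. The count of copies is a description of the letters and nothing is drawn from it about CREB.

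The phosphatases were steadier. Dusp1 (chromosome 17 of GRCm38, 26505590 to 26562128, a span that includes a distal start) measured 330, 337, 342 and 588 CPM in Eµ-PRMT5 mice, compared with 166, 205 and 364 CPM in Eµ-PRMT5/TCL1 mice, and was 137 CPM in the Eµ-TCL1 mouse. The Eµ-TCL1 mouse was the lowest of 8, the first 3 Eµ-PRMT5 mice lay between 330 and 342 CPM, and Eµ-PRMT5/TCL1 mouse 3 alone kept the 2 larger groups from separating. Dusp2 measured 28.0, 22.3, 11.2 and 9.69 CPM in Eµ-PRMT5 mice, compared with 14.6, 26.3 and 15.8 CPM in Eµ-PRMT5/TCL1 mice, and was 15.4 CPM in the Eµ-TCL1 mouse. All 3 genotypes overlapped for Dusp2. The 203 bases before the Dusp1 start that no annotated exon covers (chr17:26508520-26508722, reverse strand) are shown because they hold the full response element TGACGTCA, in capitals, which was found in 1.55% of windows and contains TGACG on each strand.
Dusp1: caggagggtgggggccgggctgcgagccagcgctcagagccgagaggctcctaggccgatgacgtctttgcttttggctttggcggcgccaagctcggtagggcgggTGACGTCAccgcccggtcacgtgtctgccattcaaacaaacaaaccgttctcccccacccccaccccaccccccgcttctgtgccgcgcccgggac
An exon of Dusp1 overlaps an exon of Ergic1 on the other strand by 11 bases, and whether counting used strand is not given in the sources used here, so reads there cannot be told apart.

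Ier2 and Zfp36 had the smallest SD of log2 CPM over the 8 mice. Ier2 measured 587, 434, 368 and 278 CPM in Eµ-PRMT5 mice, compared with 421, 487 and 407 CPM in Eµ-PRMT5/TCL1 mice, and was 693 CPM in the Eµ-TCL1 mouse. The Eµ-TCL1 mouse was highest, but with missing cells of the matrix counted as 0 it was second, at 572 CPM against 580 CPM in Eµ-PRMT5 mouse 1. Zfp36 measured 58.2, 133, 178 and 122 CPM in Eµ-PRMT5 mice, compared with 113, 112 and 144 CPM in Eµ-PRMT5/TCL1 mice, and was 81.4 CPM in the Eµ-TCL1 mouse. Every Eµ-PRMT5/TCL1 value of Zfp36 lay inside the range of the Eµ-PRMT5 mice. Zfp36 shares 125 exonic bases with Gm44710 on the other strand, with the same limit as for Dusp1.

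**Figure D1:**
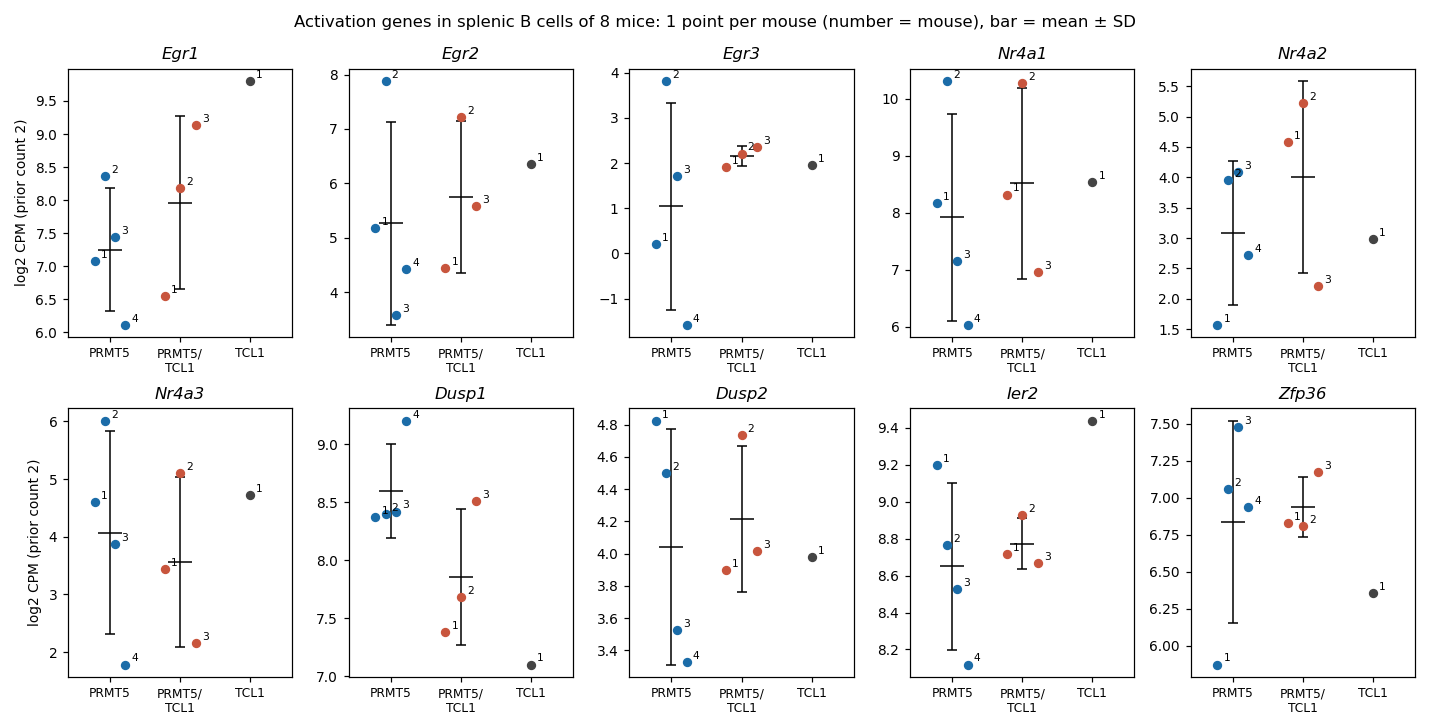
Log2 CPM (prior count 2, vertical axis) of the 10 activation genes by genotype (horizontal axis), with 1 point per mouse marked by its number and black bars for mean ± SD. Mouse 2 is at or near the top for Egr2, Nr4a1 and Nr4a3 in both replicated genotypes, and the single Eµ-TCL1 mouse is highest for Egr1 and Ier2 and lowest for Dusp1.

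The 10 genes share a group name but not an abundance. Levels of different genes were compared as CPM per kilobase of annotated exon, which removes the effect of gene length. By the median over 8 mice, with each value in CPM per kilobase, the order was Ier2 (281), Dusp1 (101), Nr4a1 (86.5), Egr1 (51.8), Zfp36 (33.9), Egr2 (12.3), Dusp2 (7.80), Nr4a3 (3.20), Nr4a2 (2.80) and Egr3 (0.790). Ier2 was clear of its neighbour Dusp1, with its lowest mouse at 182 and the highest Dusp1 mouse at 178 CPM per kilobase, but not of Nr4a1 and Egr1, whose highest mice reached 363 and 199.5 CPM per kilobase. Every other pair of neighbours overlapped across mice, so their order was not separated from the spread.

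The first comparison asked whether adding TCL1 to PRMT5 was accompanied by other levels of these genes. No gene of the group passed the test when Eµ-PRMT5/TCL1 mice were set against Eµ-PRMT5 mice. The share of all tested genes past an adjusted p of 0.05 and a 4-fold change was 0.0% in either direction (0 of 13173 genes, smallest adjusted p = 0.730 by edgeR's quasi-likelihood test with Benjamini-Hochberg adjustment). At an unadjusted p under 0.05, 0 of the 10 genes and 2.17% of all tested genes (286) passed. DESeq2 called 3 genes higher and 1 lower among all genes, and none of the 10. The largest positive difference was that of Nr4a2, at 10.2 ± 6.82 CPM (SD, n = 4) without and 21.6 ± 16.5 CPM (SD, n = 3) with TCL1. Its log2 fold change was 1.09, with a standard error (SE) of 0.74 and an adjusted p of 1.00 by edgeR, and the 95% interval ran from -0.51 to 2.69. Without Eµ-PRMT5/TCL1 mouse 2 the log2 fold change was 0.46, and without Eµ-PRMT5 mouse 2 it was 1.36, below Egr3 (1.80), Nr4a1 (1.77) and Egr2 (1.67). The largest negative difference was that of Dusp1, at 399 ± 126 CPM (SD, n = 4) against 245 ± 105 CPM (SD, n = 3). Its log2 fold change was -0.71 (SE 0.39, adjusted p = 1.00 by edgeR), with a 95% interval from -1.56 to 0.15. The log2 fold change was -0.46 without Eµ-PRMT5 mouse 4 and -1.11 without Eµ-PRMT5/TCL1 mouse 3.

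Most of the intervals were too wide to separate a large change from none. For Nr4a1, at 442 ± 561 CPM (SD, n = 4) against 562 ± 599 CPM (SD, n = 3), the 95% interval of the log2 fold change ran from -1.64 to 2.33. For Zfp36, at 123 ± 49.5 CPM (SD, n = 4) against 123 ± 18.0 CPM (SD, n = 3), it ran from -0.82 to 0.83, and for Ier2 from -0.70 to 0.85, so a change of over 2-fold in either direction lay outside the interval for these genes alone of the 10. Across the group, 6 log2 fold changes were positive and 4 negative, with a median of 0.038 where the median of all tested genes was -0.093. That median was 0.78 without Eµ-PRMT5 mouse 2 and -0.16 without Eµ-PRMT5/TCL1 mouse 2. In none of the 10 genes did all mice of one genotype lie above all mice of the other, a separation that 2.95% of all tested genes showed. Without Eµ-PRMT5/TCL1 mouse 3 the mice separated for Nr4a2 and Dusp1, 2 of the 10 genes, and for 8.94% of all tested genes. Without Eµ-PRMT5 mouse 2 they separated for Egr3, 1 of the 10, and for 4.91% of all tested genes.

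The comparisons with the Eµ-TCL1 genotype rest on 1 mouse. They can show only how far this animal sits from the other genotypes, and they share that mouse and, with the first comparison, the other mice. Against the Eµ-TCL1 mouse, 0 of the 10 genes and 0.0% of all tested genes were called in Eµ-PRMT5 mice (smallest adjusted p over all genes 0.130 by edgeR). At an unadjusted p under 0.05, 6.78% of all tested genes (893) and 2 of the 10 genes, Egr1 and Dusp1, passed. Egr1 was 5.05-fold higher in the Eµ-TCL1 mouse (895 CPM) than in Eµ-PRMT5 mice on average (177 ± 111 CPM, SD, n = 4). The log2 fold change was -2.34 (SE 0.77, unadjusted p = 0.0104, adjusted p = 0.709 by edgeR), with 4 of 4 mice below the Eµ-TCL1 mouse. Dusp1 was on the opposite side, with a log2 fold change of 1.54 (SE 0.64, unadjusted p = 0.0317, adjusted p = 0.709 by edgeR) and 4 of 4 mice above the Eµ-TCL1 mouse. With each of the 7 mice other than the Eµ-TCL1 mouse left out in turn, the log2 fold change stayed between -2.83 and -2.07 for Egr1 and between 1.30 and 1.74 for Dusp1.

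Over the group, 7 log2 fold changes were positive and 3 negative in Eµ-PRMT5 mice against the Eµ-TCL1 mouse, and the median was 0.23 beside 0.042 for all tested genes. Without Eµ-PRMT5 mouse 2 the median was -0.84, and with library size as the only scaling it was -0.017, where the median of all genes was -0.21. All 8 listed heat shock and handling genes had positive log2 fold changes in the same comparison (median 1.32), among them Hsp90aa1 at 2.41 and Hspe1 at 1.60. All 8 were also positive in Eµ-PRMT5/TCL1 mice against the Eµ-TCL1 mouse (median 1.34). The Eµ-TCL1 mouse had the lowest sum of these genes, at 2018 CPM. Their part in the values of the 10 genes was not tested. In Eµ-PRMT5/TCL1 mice against the Eµ-TCL1 mouse, 0 of the 10 genes and 0.0% of all tested genes were called, and at an unadjusted p under 0.05, 0 of the 10 and 6.09% of all tested genes (802) passed. Egr1 had a log2 fold change of -1.50 (SE 0.84) and Nr4a2 one of 1.51 (SE 1.25), the lowest and highest of the group, with adjusted p = 0.778 and 0.802 by edgeR. The median was 0.27 (all tested genes, -0.073), and -0.38 without Eµ-PRMT5/TCL1 mouse 2. The Eµ-TCL1 mouse was the highest of 8 for 2 of the 10 genes and for 21.3% of all tested genes, and the lowest for 1 of 10 and for 14.2%, so the shares of the 10 were near the background.

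**Figure D2:**
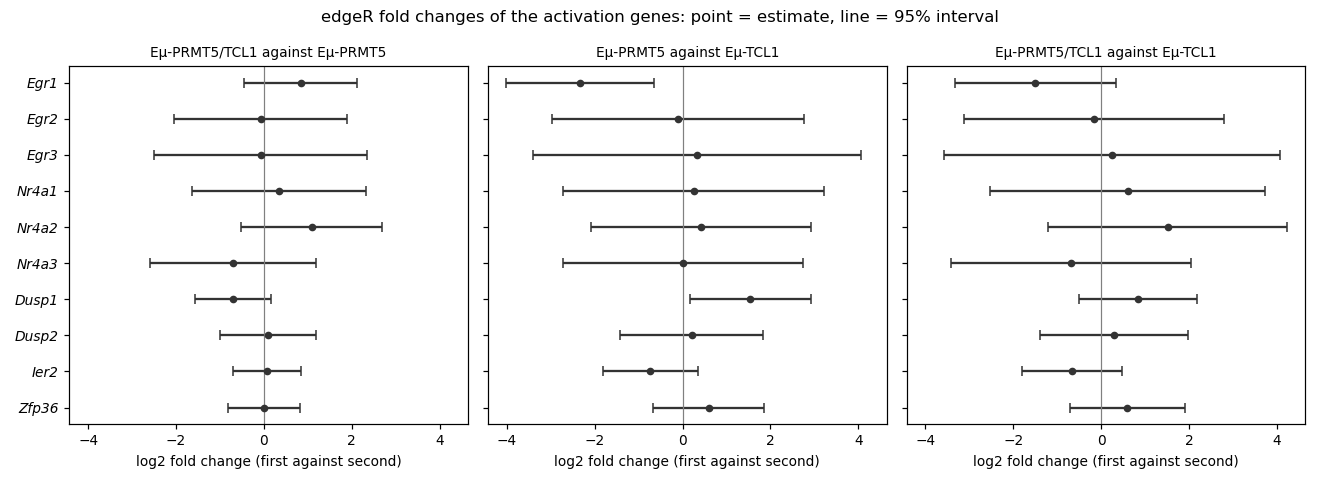
Log2 fold changes (horizontal axis) of the 10 activation genes (vertical axis) in 3 comparisons, with points for edgeR's estimate and lines for the 95% interval. Every interval includes 0 in the 2 comparisons of Eµ-PRMT5/TCL1 mice, and in Eµ-PRMT5 against Eµ-TCL1 those of Egr1 and Dusp1 do not.

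The EGR and NR4A genes varied widely between the 8 mice. The SD of log2 CPM over the 8 mice was 1.27 for Egr1, 1.48 for Egr2, 1.61 for Egr3, 1.52 for Nr4a1, 1.25 for Nr4a2 and 1.45 for Nr4a3. These 6 transcription factor genes lay between the 93.9th and 98.4th percentile of the SD over all tested genes. The other 4 did not: Dusp1 (SD 0.69) was at the 58.3rd, Dusp2 (0.55) at the 41.0th, Zfp36 (0.50) at the 34.2nd and Ier2 (0.40) at the 19.9th percentile. Within Eµ-PRMT5 mice the median SD of the 10 genes was 1.06, against 0.66 for all tested genes. Within Eµ-PRMT5/TCL1 mice it was 0.95 against 0.36. Without mouse 3 of that genotype it was 0.52, from fewer mice and with no value for all tested genes beside it. That 0.52 therefore cannot be set against 0.36 and does not single out mouse 3. Within one genotype not every EGR and NR4A gene stood high: Egr1 was at the 73.6th and Nr4a2 at the 86.4th percentile in Eµ-PRMT5 mice, and Egr3 (SD 0.22) at the 24.8th in Eµ-PRMT5/TCL1 mice.

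**Figure D3:**
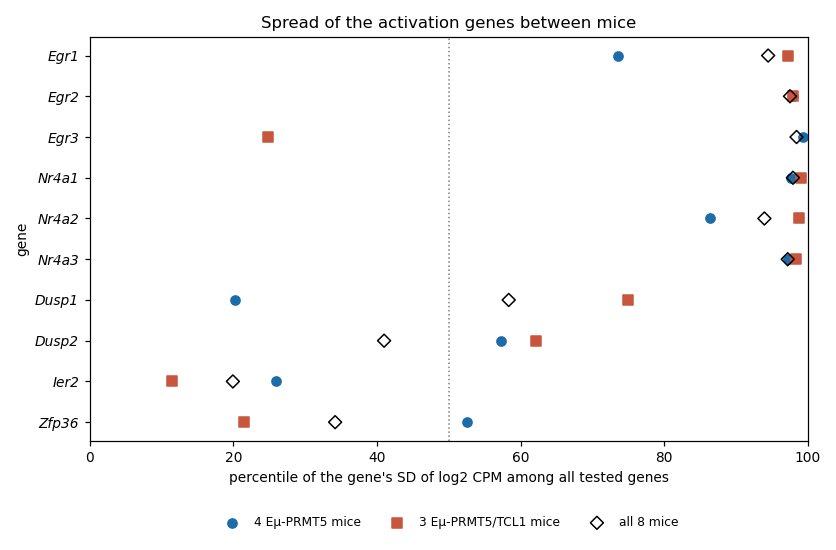
Percentile (horizontal axis) of each gene's SD of log2 CPM among all tested genes, for the 4 Eµ-PRMT5 mice, the 3 Eµ-PRMT5/TCL1 mice and all 8 mice, with the dotted line at the median. The 6 EGR and NR4A genes lie above the 90th percentile over 8 mice, and Dusp1, Dusp2, Ier2 and Zfp36 lie below the 60th.

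The spread followed particular mice. Eµ-PRMT5 mouse 2 was the highest of 8 for 4 of the 10 genes (Egr2, Egr3, Nr4a1 and Nr4a3) and for 8.65% of all tested genes. With upper-quartile scaling, Eµ-PRMT5/TCL1 mouse 2 exceeded it for Nr4a1. Both mice stood above the other 6 for Egr2, Nr4a1 and Nr4a3, that is 3 of 10 genes, and for 2.65% of all tested genes. No other pair of mice was the top pair for more than 1 of the 10 genes. This pair was picked out after the values were seen, and their number in the labels does not tie them to each other. The B-cell markers were at 3852 and 5106 CPM and the T-cell markers at 255 and 718 CPM in these mice, inside the range of the others for B cells. The T-cell sum was highest in Eµ-PRMT5/TCL1 mouse 2, where Lck made up 667 CPM of it and Cd3e was the lowest of 8 mice, at 6.43 CPM. The 8 heat shock and handling genes together reached 8709 CPM in Eµ-PRMT5 mouse 2, the highest of 8. In Eµ-PRMT5/TCL1 mouse 2 they were at 3674 CPM, with the other 6 mice between 2018 and 5194 CPM. Hspa8 alone made up 6376 CPM of the sum in Eµ-PRMT5 mouse 2. That mouse was also highest for Dnaja1, Hsph1 and Hspe1, but not for Hspa1a, Hspa1b, Hsp90aa1 and Dnajb1. The part of other cells or of handling in the pattern was not tested.

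Eµ-PRMT5 mouse 4 was the lowest of 8 for 6 of the 10 genes (Egr1, Egr3, Nr4a1, Nr4a3, Dusp2 and Ier2) and for 17.9% of all tested genes, and the highest for 1, Dusp1, and for 20.1%. It also had the lowest B-cell markers, at 1899 CPM. Whether its cell content bears on the low values was not tested. For Dusp2 the lowest mouse was Eµ-PRMT5 mouse 3 when missing cells were counted as 0. Without mouse 4, 0 of the 10 genes separated Eµ-PRMT5/TCL1 from Eµ-PRMT5 mice, and 10.8% of all tested genes did.

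Pairs of the 10 genes were compared over the 8 mice by correlation of log2 CPM, 45 pairs in all. Of these, 29 had a positive and 16 a negative Pearson's r, and none passed Benjamini-Hochberg adjustment over the 45 pairs. The closest was Nr4a1 with Nr4a3, with r = 0.90 (two-sided exact permutation p = 0.00372, adjusted p = 0.167) and a Spearman's rho of 0.93 (exact permutation p = 0.00223, adjusted p = 0.100). With Eµ-PRMT5 mice 2 and 4 left out, the 2 farthest from the median of Nr4a1, r was 0.76. Egr2 with Nr4a1 had r = 0.82 (exact permutation p = 0.0135, adjusted p = 0.305) and rho = 0.79 (exact permutation p = 0.0279, adjusted p = 0.236). Without both mice numbered 2, the 2 farthest from the median of Egr2, r was 0.44. As these are the 2 highest mice for Egr2, a lower r without them cannot show that the relation rested on them. The pairs left out differ, so 0.76 and 0.44 cannot be set against each other. Dusp1 ran opposite to Ier2, with r = -0.73 (exact permutation p = 0.0379, adjusted p = 0.334) and rho = -0.81 (exact permutation p = 0.0218, adjusted p = 0.236). No genotype held enough mice for a value within it.

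Of the 8 AP-1 genes, a family that the same signals induce, Fos and Jun were highest in other mice. Fosb was too, at 61.5 CPM in Eµ-PRMT5/TCL1 mouse 3. By contrast, Fosl1 (59.1 CPM) and Fosl2 (47.0 CPM) were highest in Eµ-PRMT5 mouse 2, and Atf3 (193 CPM) in Eµ-PRMT5/TCL1 mouse 2. Junb (1459 CPM) and Jund (4.67 CPM) were highest in Eµ-PRMT5 mouse 1. Fos measured 72.5, 79.5, 912 and 480 CPM in Eµ-PRMT5 mice, compared with 134, 152 and 1194 CPM in Eµ-PRMT5/TCL1 mice, and was 90.8 CPM in the Eµ-TCL1 mouse. The 3 mice with the highest Fos and Jun (Eµ-PRMT5 mice 3 and 4 and Eµ-PRMT5/TCL1 mouse 3) were the 3 with the lowest Nr4a1. This was noticed in the values and has no test.

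**Figure D4:**
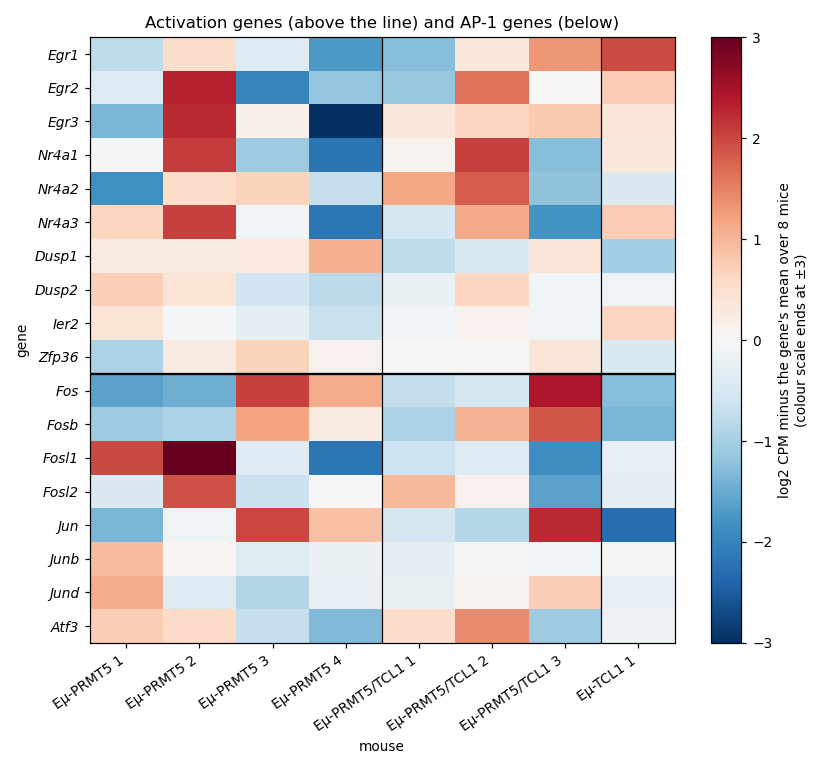
Log2 CPM of each gene minus its mean over the 8 mice (color, with the scale ending at ±3) for the 10 activation genes above the line and 8 AP-1 genes below it, by mouse (columns). Egr2, Nr4a1 and Nr4a3 are red in both mice numbered 2, while Fos and Jun are red in Eµ-PRMT5 mice 3 and 4 and Eµ-PRMT5/TCL1 mouse 3.

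Other genes of the same response are given by count. Of 27 further receptor-induced genes, none passed the adjusted threshold in any comparison. In the first comparison, 1 of 27 was lower with TCL1 at an unadjusted p under 0.05 by edgeR, beside 2.17% of all tested genes in either direction. It was Cd69, an early activation antigen, with a log2 fold change of -0.95 (SE 0.43). The median of the 27 was -0.29 beside -0.093 for all tested genes. In Eµ-PRMT5 mice against the Eµ-TCL1 mouse, that median was 0.63 beside 0.042 for all tested genes. Klf6, a zinc finger factor, had a log2 fold change of 1.69 (SE 0.77) there. Both mice numbered 2 stood above the other 6 for 5 of the 27, and for 2.65% of all tested genes. The 5 were Cd83, a maturation antigen of activated B cells, Nfkbid, Csrnp1, Sik1 and Bhlhe40. As this pair of mice was picked out after the values were seen, the count is a description. Cd83 measured 1457, 2521, 747 and 771 CPM in Eµ-PRMT5 mice, compared with 952, 2649 and 1129 CPM in Eµ-PRMT5/TCL1 mice, and was 681 CPM in the Eµ-TCL1 mouse. A further 27 genes belong to the route from the receptor to these promoters, among them Syk, Btk, Srf and Creb1. In the first comparison 0 of them passed an unadjusted p of 0.05 by edgeR, beside 2.17% of all tested genes. Both mice numbered 2 were on top for 0 of them, beside 2.65% of all tested genes, so both counts were near the background. Against the Eµ-TCL1 mouse their median log2 fold change was 0.073 in Eµ-PRMT5 mice (all tested genes, 0.042). In Eµ-PRMT5/TCL1 mice it was 0.080 (all tested genes, -0.073).

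Paralogs and partners gave few differences. Nab2, a corepressor that EGR proteins induce and bind, was highest in both mice numbered 2, at 47.2 and 73.1 CPM. The 6 other mice were between 7.10 and 33.8 CPM. Its relative Nab1 was not, at 40.4 and 46.3 CPM there against 78.3 CPM in Eµ-PRMT5 mouse 1. Of the other paralogs tested, Dusp16 alone had this pair on top, as 2.65% of all tested genes did. The pair was picked out after the values were seen, so this is a description. Of 7 further MAP kinase phosphatases tested, Dusp10 and Dusp14 were higher in Eµ-PRMT5/TCL1 mice in the first comparison at an unadjusted p under 0.05. In that comparison 2.17% of all tested genes passed in either direction. Their log2 fold changes were 0.90 (SE 0.39, Dusp10) and 0.98 (SE 0.41, Dusp14), and both had an adjusted p of 1.00 by edgeR. Dusp14 was also lower in Eµ-PRMT5 mice than in the Eµ-TCL1 mouse, with a log2 fold change of -1.58 (SE 0.55, adjusted p = 0.709 by edgeR). Dusp6, which ERK signaling induces, was at 62.5 CPM in the Eµ-TCL1 mouse and between 21.2 and 50.1 CPM in the others, and did not pass (unadjusted p = 0.0514). Zfp36l1, a paralog of Zfp36, was higher in Eµ-PRMT5/TCL1 mice than in the Eµ-TCL1 mouse by 1.38 on the log2 scale (SE 0.62, adjusted p = 0.778 by edgeR). Egr4, Dusp8 and Ier5l were not among the tested genes.

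The genes nearest to Egr1, Nr4a1 and Zfp36 in pattern were found as those with the smallest SD of the log2 ratio over the 8 mice. Nearest to Egr1 was Tymp (SD 0.37, where the SD of Egr1 itself was 1.27), followed by Mag, Gpr152, Gm2666 and BB287469, each with a mean of at most 10.02 CPM. Nearest to Nr4a1 was Nt5e (SD 0.63, against 1.52 for Nr4a1), followed by Sesn2, Abtb2, Plcd3 and Ankrd33b. Nt5e ranged from 19.9 to 369 CPM. Nearest to Zfp36 was Cluap1 (SD 0.18, against 0.50 for Zfp36), followed by BC029722, Polr3b, Cc2d1b and Rbck1. With 8 mice and 13173 genes some close matches arise in any case, and these are a description with no test.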

How the data were processed

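Pan-B cells from spleens of 8 mice at ERC were profiled by bulk RNA-sequencing. The authors deposited whole-number counts per gene symbol and mouse, neither normalized nor pooled. Per the methods, cDNA of a low input was preamplified and the CLEAR workflow kept reliably quantifiable transcripts, whereas the labels describe a stranded kit; the submitters' processing notes name Subread, featureCounts, DESeq2 1.20.0 and GRCm38. The aligner and use of strand are not given in the sources used here.

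Of 24902 symbols, 10830 held NA in at least 1 mouse. NA was not read as 0, since 0 also occurs, and the 14072 complete symbols were used (95.2% to 99.5% of each library's counts). Counting NA as 0 was an alternative.

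Groups follow the labels. edgeR 4.0.16 (R 4.3.3) was fitted to all 8 mice with TMM factors, its expression filter (13173 genes) and the quasi-likelihood test, with Benjamini-Hochberg adjustment. The study's thresholds, 0.05 for the adjusted p and 4 for the fold change, set the calls. With 1 Eµ-TCL1 mouse the spread comes from the other genotypes. Log2 CPM used a prior count of 2. The code was tested on simulated counts. Nothing says that reads were deduplicated by molecular identifiers, so floors cover counting error only. Motifs were searched on both strands of RefSeq windows (GRCm38.p6), and exon lengths are from GENCODE vM21. Python 3.11.15 was used. Alternatives were DESeq2 1.42.0, library size only, upper-quartile scaling, no expression filter, a minimum of 10 counts in each mouse, fits to the compared groups alone, a prior count of 0.5, each mouse but the Eµ-TCL1 mouse left out and a replicate block.

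The 10 genes and all lists were chosen with earlier results of these data known, and nothing rests on the choice as independent support. The named genes are the 10, the listed paralogs, partners, further receptor-induced, upstream, AP-1, heat shock and marker genes, and the nearest in pattern to Egr1, Nr4a1 and Zfp36 among genes with an SD of at least 0.5. Some listed genes are not reported here by name.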

Additional observations from a re-analysis of the deposited data

Results flagged for a closer look

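Among the 4 Eµ-PRMT5 mice, 1 value stood apart from the other 3 by more than Dixon's 95% critical value for 4 samples for 2 of the 10 genes. The rule was applied to CPM and not to log2 CPM. Egr2 was 236 CPM in mouse 2, and its gap to the nearest mouse was 0.893 of the range. On the log2 scale Egr2 was 7.89 in mouse 2 and 5.17, 3.58 and 4.42 in mice 1, 3 and 4. There the gap was a smaller part of the range, so the flag for Egr2 depends on the scale. Dusp1 was 588 CPM in mouse 4, with a gap of 0.955 of the range. Chance marks about 1 in 20 groups of normally distributed values. Nr4a1 in mouse 2 came close, with a gap of 0.815 of the range. Without mouse 4, the log2 fold change of Dusp1 in Eµ-PRMT5 against the Eµ-TCL1 mouse was 1.30 in place of 1.54.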

How the results depend on the processing

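No member passed an adjusted p of 0.05 in any setting (smallest 0.250, Egr1 without Eµ-PRMT5 mouse 3), and 394 of 437 member values kept their sign. For all 43 that turned, the log2 fold change in the report was smaller than its standard error. edgeR called 0 genes of the whole table in every setting run, while DESeq2 called 3 higher and 1 lower (Eµ-PRMT5/TCL1 against Eµ-PRMT5), 4 and 14 (Eµ-PRMT5 against Eµ-TCL1) and 9 and 7 (Eµ-PRMT5/TCL1 against Eµ-TCL1). With 1 of the 7 mice other than Eµ-TCL1 left out, the median over the 10 genes ran from -0.16 to 0.78, from -0.84 to 0.51 and from -0.38 to 0.41 in these comparisons, and 0 to 2 of the 10 genes and 4.91% to 13.2% of all tested genes separated Eµ-PRMT5/TCL1 from Eµ-PRMT5 mice.

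In the first of these comparisons the ranges without 1 mouse of members that turned were -1.14 to 1.67 (Egr2), -0.50 to 1.80 (Egr3), -0.999 to 1.77 (Nr4a1), -1.85 to 0.24 (Nr4a3), -0.22 to 0.41 (Dusp2), -0.079 to 0.30 (Ier2) and -0.21 to 0.24 (Zfp36). Against the Eµ-TCL1 mouse they were -1.84 to 0.26 (Egr2), -1.56 to 0.76 (Egr3), -1.16 to 0.62 (Nr4a1) and -0.93 to 0.39 (Nr4a3) in Eµ-PRMT5, and -1.24 to 0.27 (Egr2), -0.74 to 1.08 (Nr4a1) and -0.019 to 0.45 (Dusp2) in Eµ-PRMT5/TCL1 mice. Upper-quartile scaling turned Egr2 in the first comparison (0.010) and Nr4a3 in Eµ-PRMT5 against Eµ-TCL1 (-0.15). Library size only turned Zfp36 in the first (-0.018) and, in Eµ-PRMT5 against Eµ-TCL1, Nr4a3 (-0.22) and Dusp2 (-0.059), and moved the median of all genes to -0.21. DESeq2 gave Zfp36 -0.00082 in the first. Counting NA as 0 gave Egr2 0.21 and 0.13 against the Eµ-TCL1 mouse. The cause of these turns was not tested.

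Same-numbered mice are different animals and no label ties them, so the numbers were not taken as pairs. Their deviations from the group means correlated at -0.02, 0.15 and 0.16. Those of differently numbered mice ran from -0.10 to 0.11, so mice 2 and mice 3 gave the highest values. Whether same-numbered mice share anything was not tested. With a replicate block over mice 1 to 3 of both genotypes, 0 genes were called, and the log2 fold changes of Egr2 (0.12), Egr3 (0.23), Nr4a1 (-0.030), Dusp2 (-0.069) and Ier2 (-0.059) turned. The same 6 mice without the block, added after the data were seen, gave -0.016 (Nr4a1), -0.12 (Dusp2), -0.081 (Ier2) and -0.0062 (Zfp36). Depth limits Egr3 most.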
